A study of Caenorhabditis elegans with 4 samples.

Results

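The genes described here are the 10 *C. elegans* genes that carry the main steps of propionate breakdown and the methionine synthase reaction. They were chosen by name from what their enzymes do, with earlier results of these data known. The set holds 5 genes of the propionate shunt, 4 genes of the vitamin B12-dependent route and the gene for methionine synthase. These genes are 10 of the 46745 sequence names in the deposited table, and all 10 passed the filter on low counts that left 12505 genes for testing. RNA came from whole wild-type animals of the Bristol strain N2. In 2 samples the food was *E. coli* OP50, the usual laboratory food, and in the other 2 it was the lactic acid bacterium *L. paracasei* subsp. *paracasei* 2004 (below, 2004). Feeding lasted 3 days from the first day of adulthood; the labels describe culture in liquid S basal and the methods of the study describe NGM plates with around 200 animals per RNA sample, which were therefore pools. The comparison asked how the RNA levels of these genes differed between the foods. No label says whether the samples of a food came from separate cultures, so the p-values measure the spread between these samples, which may be technical.

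Propionate is toxic and arises from the breakdown of valine, isoleucine, methionine, threonine and odd-chain fatty acids. In the canonical route, propionyl-CoA is carboxylated and rearranged to succinyl-CoA, and the last enzyme of that route needs a form of vitamin B12. When B12 is scarce, *C. elegans* instead oxidises propionyl-CoA through a beta-oxidation-like shunt, whose first gene, *acdh-1*, is widely used as a reporter of dietary B12 in intestine and epidermis. The only other known B12-dependent enzyme of the animal is methionine synthase, which regenerates methionine from homocysteine.

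The libraries held between 44548901 and 50504029 counts, and the counts of the replicates were spread beyond sampling noise, with a chi-square of 82.9 per degree of freedom between the OP50 samples and 35.6 between the 2004 samples. Expression is given as CPM, the counts of a gene divided by the total of its library and scaled to 1000000. Of tissue markers summed over each list, the 6 intestinal markers stood at 360 and 408 CPM on OP50 and at 994 and 816 CPM on 2004, with *vha-6* alone called higher (edgeR, a change of more than 2-fold at an adjusted p under 0.1). Most of that sum came from *act-5* and *vha-6*, the median log2 fold change of the 6 was 0.61, and *ges-1* and *elt-2* stood at -0.69 and 0.088 (adjusted p = 0.122 and 0.759, edgeR). The 4 body wall muscle markers stood at 1174 and 1064 CPM on OP50 and at 393 and 348 CPM on 2004, with *unc-15*, *unc-22* and *unc-54* called lower. Of 5 neuronal markers *ric-4* was called lower (0 by DESeq2), and of 5 germline and 4 tested embryonic markers 0 were called by edgeR, DESeq2 or limma-voom. At an unadjusted p under 0.05, 4 of 6 intestinal, 2 of 5 germline, 1 of 4 embryonic markers and the 1 tested epidermal marker were higher. At that p, 3 of 5 neuronal and 4 of 4 muscle markers were lower. Over the 12505 tested genes, 3006 were higher and 3173 lower at that p. Of the 4 epidermal markers *lin-26* alone passed the filter, and 0 markers of any list were at 0 counts in every sample. Tissue makeup was not tested as a part of the results below, and in whole animals fewer cells of a type and less RNA per cell cannot be told apart.

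In animals fed 2004, 4 of the 5 shunt genes were lower at an adjusted p under 0.1 (edgeR), where 25.2% of all tested genes were. The count fell when OP50 replicate 2 was left out, and the median log2 fold change of the 5 moved from -0.59 to -0.37. Of the 10 genes, *acdh-1* had the largest fold change. *acdh-1* (C55B7.4; chromosome I, 6497436 to 6499560, + strand, WBcel235) encodes the acyl-CoA dehydrogenase that turns propionyl-CoA into acrylyl-CoA. It had 139 and 567 CPM in the OP50 samples and 73.2 and 63.4 CPM in the 2004 samples. Both 2004 samples lay below both OP50 samples, and the OP50 samples lay farther from each other than OP50 replicate 1 lay from either 2004 sample on the log scale. The log2 fold change was -2.38 ± 0.44 (SE, adjusted p = 0.00226 by edgeR), a level 5.2-fold lower on 2004. The size rested on OP50 replicate 2: the log2 fold change was -1.17 without it and -3.01 without OP50 replicate 1. These 2 fits leave only the 2004 samples to measure the spread of *acdh-1*. The 2004 samples lay far closer together than the OP50 samples, so these fits do not test the call.

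*hphd-1* (Y38F1A.6; chromosome II, 12994354 to 12996571, - strand) encodes the dehydrogenase that oxidises 3-hydroxypropionate to malonic semialdehyde. It had 37 and 107 CPM on OP50 and 35.6 and 27.5 CPM on 2004. The groups did not overlap, but OP50 replicate 1 and 2004 replicate 1 were close to each other. The log2 fold change was -1.21 ± 0.32 (SE, adjusted p = 0.0145 by edgeR), or 2.31-fold lower. The call was lost without OP50 replicate 2 (log2 fold change -0.37, adjusted p = 0.102) and with DESeq2 (-1.19, adjusted p = 0.128).

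The other 3 shunt genes differed by less than 2-fold. *ech-6* (T05G5.6; chromosome III, 9751552 to 9752883, - strand), the enoyl-CoA hydratase that follows *acdh-1*, had 156 and 234 CPM on OP50 and 138 and 128 CPM on 2004. Its groups did not overlap, and its log2 fold change was -0.59 (95% confidence interval -0.96 to -0.23, adjusted p = 0.0165, edgeR), with -0.37 when OP50 replicate 2 was left out (adjusted p = 0.0532) and -0.78 when OP50 replicate 1 was. *hach-1* (F09F7.4; chromosome III, 5555450 to 5557318, + strand) encodes the hydrolase that releases 3-hydroxypropionate from coenzyme A. It had 70.3 and 118 CPM on OP50 and 71.3 and 64.3 CPM on 2004, so that OP50 replicate 1 lay within the range of the 2004 samples. Its log2 fold change was -0.51 (95% confidence interval -0.90 to -0.12, adjusted p = 0.0395, edgeR), and -0.19 without OP50 replicate 2 (adjusted p = 0.310). *alh-8* (F13D12.4; chromosome II, 11729055 to 11731198, + strand), whose enzyme converts malonic semialdehyde to acetyl-CoA and also serves valine breakdown, had 503 and 564 CPM on OP50 and 423 and 452 CPM on 2004. These groups did not overlap, and the log2 fold change was -0.33 (95% confidence interval -0.73 to 0.06, adjusted p = 0.161, edgeR). The adjusted p of *alh-8* was 0.0793 with DESeq2 and 0.149 with limma-voom.

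Counted over the shunt, 2 of 5 genes were called lower, where 14.8% of all tested genes were called lower, and 0 were called higher (0 also at an unadjusted p under 0.05 and by DESeq2 and limma-voom). At an adjusted p-value under 0.1 with no fold threshold, 4 of 5 were lower, against 25.2% of all genes. In 4 of 5 both 2004 samples lay below both OP50 samples, against 33.7% of all genes, and the median log2 fold change of the 5 genes was -0.59, against -0.028 over all genes. Leaving out OP50 replicate 2 lowered the count with no fold threshold and gave a median of -0.37. Of the 10 genes together, 2 were called lower, a share close to that background, and 0 were called higher, against 7.55% of all genes.

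**Figure D1:**
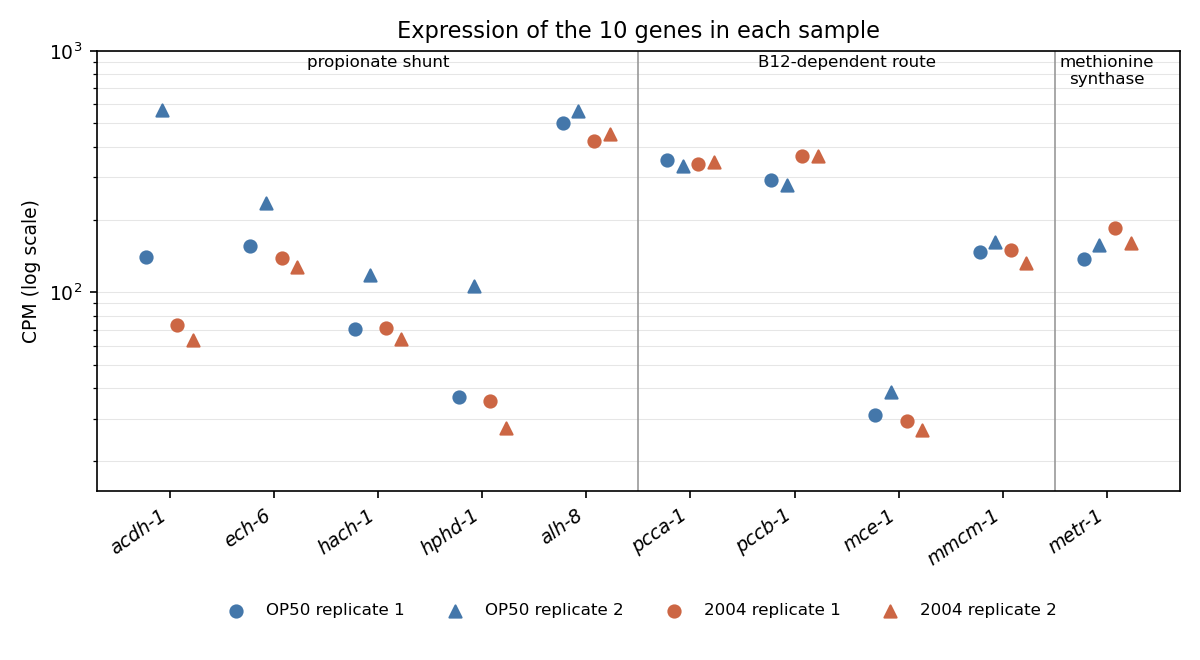
CPM (log axis) of the 10 genes in each of the 4 samples, OP50 in blue and 2004 in orange, circles for replicate 1 and triangles for replicate 2. For *acdh-1* the 2004 samples sit at 73.2 and 63.4 CPM, below 139 and 567 CPM on OP50, while the *pcca-1* samples all lie between 334 and 352 CPM.

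Of the 4 genes of the B12-dependent route, 0 were called in either direction by edgeR, DESeq2 or limma-voom, where edgeR called 22.4% of all tested genes. At an unadjusted p under 0.05, 1 of the 4, *mce-1*, was lower and 0 were higher, where 3173 and 3006 of the 12505 tested genes were. *pcca-1* (F27D9.5; chromosome X, 7657542 to 7660986, - strand) encodes the biotin-carrying alpha subunit of propionyl-CoA carboxylase. It had 352 and 334 CPM on OP50 and 341 and 347 CPM on 2004, so the foods overlapped. Its log2 fold change was -0.051 (95% confidence interval -0.43 to 0.33, adjusted p = 0.829, edgeR), with a sign that depended on the scaling and on the samples kept.

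*pccb-1* (F52E4.1; chromosome X, 3089549 to 3092437, + strand) encodes the beta subunit of the same enzyme. It had 293 and 278 CPM on OP50 and 367.8 and 368.3 CPM on 2004. Both 2004 samples lay above both OP50 samples, as in 37.5% of all genes, and the log2 fold change was 0.31 (95% confidence interval -0.060 to 0.68, adjusted p = 0.162, edgeR). The adjusted p was 0.0929 with DESeq2, 0.158 with limma-voom and 0.0362 with edgeR scaled by library size alone. On the annotation, 43 bases of *pccb-1* overlap *wrt-2* on the opposite strand and 34 bases of *alh-8* overlap F13D12.8, likewise on the opposite strand. No source says that strand was used in counting, so these genes may share a few reads with their neighbours.

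*mce-1* (D2030.5; chromosome I, 7582106 to 7583333, + strand) encodes methylmalonyl-CoA epimerase. It had 31.1 and 38.8 CPM on OP50 and 29.3 and 27 CPM on 2004, with no overlap, and its log2 fold change was -0.36 (95% confidence interval -0.66 to -0.058, adjusted p = 0.0577, edgeR). *mmcm-1* (ZK1058.1; chromosome III, 3903185 to 3907687, - strand) encodes methylmalonyl-CoA mutase, the B12-dependent last step. It had 146 and 162 CPM on OP50 and 150 and 133 CPM on 2004, which overlapped, and its log2 fold change was -0.18 (95% confidence interval -0.47 to 0.11, adjusted p = 0.299, edgeR). The intervals of all 4 genes lay between a log2 fold change of -0.66 and 0.68, inside the 2-fold threshold on both sides.

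*metr-1* (R03D7.1; chromosome II, 10926561 to 10931078, + strand), the gene for methionine synthase, had 137 and 157 CPM on OP50 and 185 and 160 CPM on 2004. The 2004 samples lay above the OP50 samples, but OP50 replicate 2 and 2004 replicate 2 were nearly level. Its log2 fold change was 0.18 (95% confidence interval -0.12 to 0.48, adjusted p = 0.319, edgeR).

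**Figure D2:**
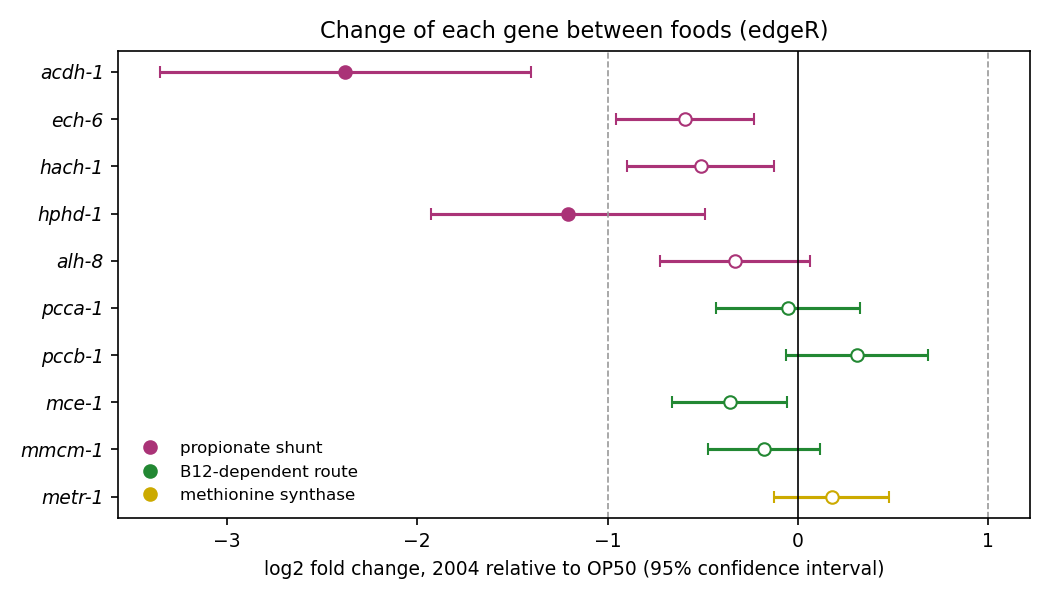
Log2 fold change of each gene, 2004 relative to OP50, with its 95% confidence interval from edgeR; filled points were called, open points were not, and dashed lines mark a 2-fold change. *acdh-1* at -2.38 and *hphd-1* at -1.21 are the called genes, and the intervals of the other 8 genes lie inside the dashed lines.

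To set both routes side by side within a library, CPM was divided by the length of the merged exons in kilobases (RPKM), and the genes of each route were summed. The summed level of the B12-dependent route was 399 RPKM in both OP50 samples and 434 and 426 RPKM in the 2004 samples. The shunt summed to 590 and 1030 RPKM on OP50 and to 488 and 478 RPKM on 2004. The ratio of shunt to B12-dependent route was therefore 1.48 and 2.58 on OP50 and 1.12 in both 2004 samples. On the log2 scale the mean ratio was 0.97 ± 0.57 (SD, n = 2) on OP50 and 0.17 ± 0.0028 (SD, n = 2) on 2004, a difference of -0.80 (2004 minus OP50, exact permutation test, two-sided, p = 0.333, the smallest p that 2 against 2 samples allow). Leaving out OP50 replicate 2 gave a difference of -0.40, and leaving out OP50 replicate 1 one of -1.20. Without *acdh-1* it was -0.53, and the ratios were 1.27 and 1.73 on OP50 and 1.02 and 1.03 on 2004, so that each OP50 sample still lay above each 2004 sample.

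The order of the mean levels per length also differed between foods. On OP50, *alh-8* came first at 301 ± 24.2 RPKM (SD, n = 2), followed by *acdh-1* at 211 ± 180 RPKM (SD, n = 2) and *ech-6* at 192 ± 54.5 RPKM (SD, n = 2). The samples of *acdh-1* overlapped those of the genes next to it in this order. Its place rests on OP50 replicate 2, at 338 RPKM. In OP50 replicate 1 *acdh-1* stood at 83.1 RPKM, below *alh-8*, *pccb-1*, *ech-6* and *pcca-1* (284, 157, 153 and 144 RPKM). On 2004, *alh-8* was again first at 247 ± 11.4 RPKM (SD, n = 2), then came *pccb-1* at 198 ± 0.181 RPKM (SD, n = 2), *pcca-1* at 141 ± 1.60 RPKM (SD, n = 2) and *ech-6* at 131 ± 7.20 RPKM (SD, n = 2). There *acdh-1* stood at rank 8 of 10, at 40.7 ± 4.12 RPKM (SD, n = 2), and overlapped *metr-1* at 43.6 ± 4.49 RPKM (SD, n = 2). Divided by the length of its longest annotated transcript, *acdh-1* stood at 48.9 RPKM on 2004, so that its place among these close levels rests on the length used. *hphd-1* was last of the 10 genes on 2004, at 19.0 ± 3.42 RPKM (SD, n = 2). It was also last in OP50 replicate 1, at 22.3 RPKM, but not in OP50 replicate 2, at 64.2 RPKM. *acdh-1* made up 14.1% and 32.8% of the summed shunt level on OP50 and 8.94% and 7.90% on 2004.

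The shunt genes also differed from each other in how far the OP50 samples lay apart. OP50 replicate 2 was the highest of the 4 samples for all 5 shunt genes, against 39.9% of all tested genes. It exceeded OP50 replicate 1 by 4.07-fold for *acdh-1*, 2.88-fold for *hphd-1*, 1.68-fold for *hach-1*, 1.5-fold for *ech-6* and 1.12-fold for *alh-8*. Among the 6792 tested genes that averaged 10 CPM or more and had counts in all 4 samples, ordered by how far the log2 ratio of the OP50 replicates lay from its median of 0.12, *acdh-1* was at rank 5 and *hphd-1* at rank 18. Of these genes, 67 (0.986%) lay more than 2-fold from the median. *hach-1* was at rank 266 and *ech-6* at rank 651, and *alh-8* and the genes of the B12-dependent route lay at rank 3020 or beyond. Between the 2004 replicates, *acdh-1* was at rank 4638 and *hphd-1* at rank 1666. What set OP50 replicate 2 apart for these genes was not tested. A batch is named in no label and not in the methods.

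**Figure D3:**
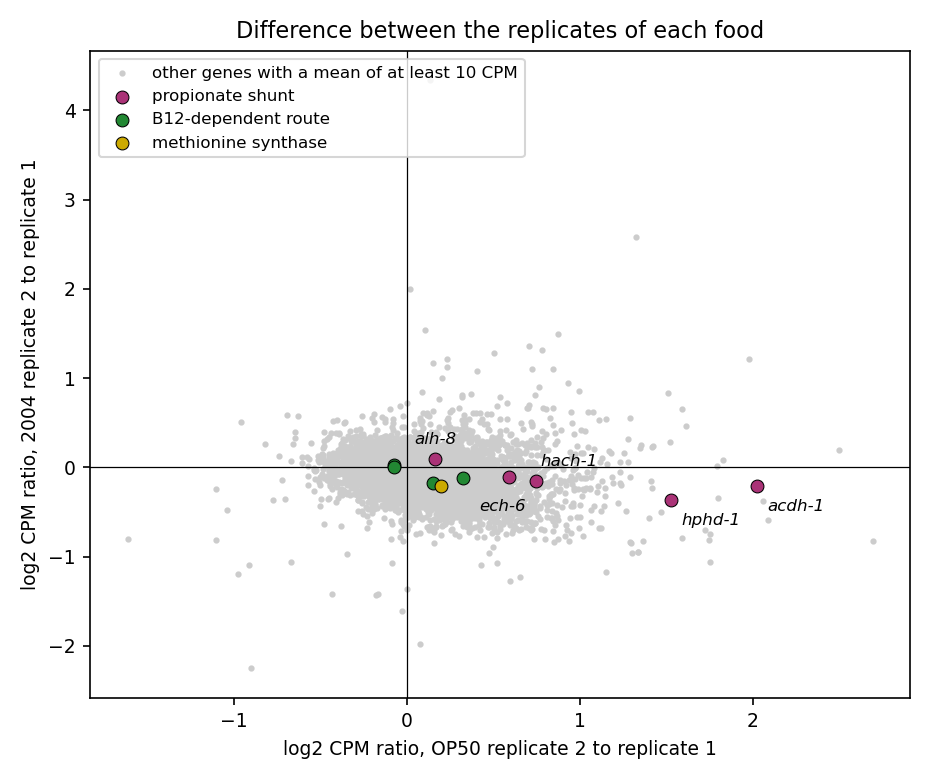
Log2 CPM ratio of replicate 2 to replicate 1, OP50 on the x axis and 2004 on the y axis, for tested genes with a mean of at least 10 CPM (grey) and the 10 genes (coloured by route). *acdh-1* (2.02) and *hphd-1* (1.53) lie far to the right on the OP50 axis, while both sit near the bulk of genes on the 2004 axis (-0.21 and -0.37).

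The deposited table lists transcripts, and 32 of them belong to these genes, of which 18 passed the filter. Transcript counts depend on how StringTie divides shared reads, and the spread between replicates was larger there (common dispersion 0.254, against 0.0314 for summed counts). At least 99.4% of the counts of *acdh-1* were assigned to C55B7.4a in every sample. Tested in the transcript table, C55B7.4a had a log2 fold change of -2.39 and an adjusted p-value of 0.123 (edgeR), above the threshold. The transcripts of *hphd-1* missed it as well (adjusted p = 0.177 for Y38F1A.6.1 and 0.284 for Y38F1A.6.2, edgeR).

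Of the 18 tested transcripts, 1 was called higher and 1 lower, where 4.24% and 7.13% of all tested transcripts were, and both belong to *hach-1*. F09F7.4b.3 had 115 and 241 counts on OP50 and 1025 and 944 counts on 2004, a log2 fold change of 2.49 ± 0.33 (SE, adjusted p = 0.0540 by edgeR). F09F7.4a.2 had 179 and 327 counts on OP50 and 11 and 10 counts on 2004, a log2 fold change of -4.56 ± 0.41 (SE, adjusted p = 0.0427 by edgeR). F09F7.4b.3 thus held 3.67% and 4.04% of the gene's counts on OP50 and 31.0% and 31.7% on 2004, and the replicates of each food differed little in this share. The main transcripts F09F7.4a.1 and F09F7.4b.1 had 48.1% and 46.0%, and 42.4% and 44.3%, of the counts on OP50. On 2004 their shares were 33.1% and 35.1%, and 34.9% and 32.6%. F09F7.4b.3 and F09F7.4a.2 are not among the *hach-1* transcripts of Ensembl release 115, so their exons were not compared here.

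**Figure D4:**
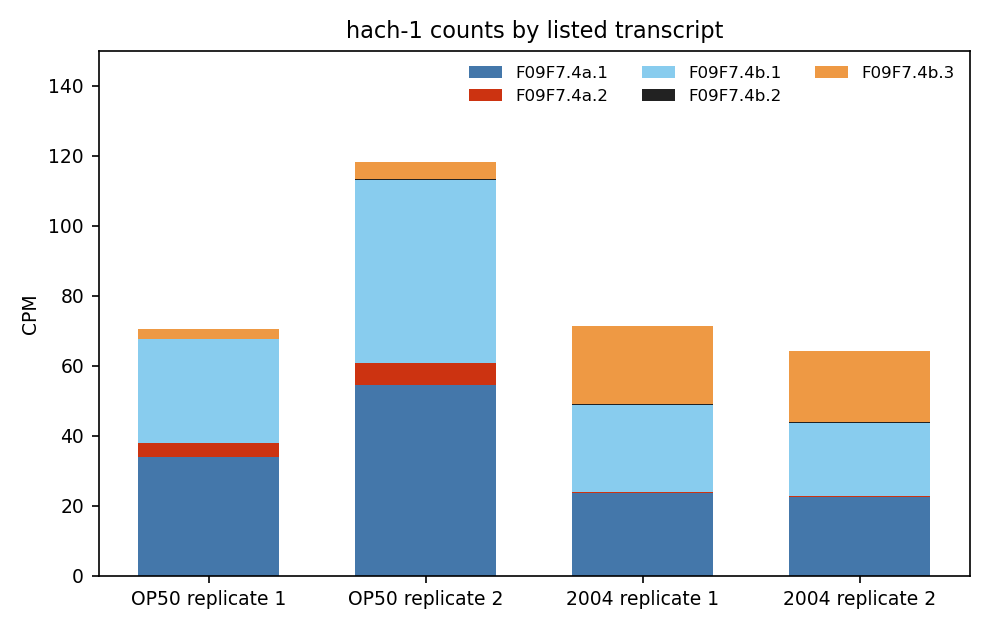
CPM assigned to each listed *hach-1* transcript, stacked, in the 4 samples. The share of F09F7.4b.3 (top of each bar) is 3.67% and 4.04% on OP50 and 31.0% and 31.7% on 2004, and F09F7.4a.2 falls from 5.71% and 5.48% to 0.333% and 0.336%.

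Of 6 listed genes that handle vitamin B12, 1 was called higher and 1 lower, against 7.55% and 14.8% of all tested genes. Counts this small do not set the list apart from those shares. The median log2 fold change of the 6 genes was -0.14. *mrp-5*, an ABC transporter known for exporting heme and B12 from the intestine, had 88.4 and 99.0 CPM on OP50 and 452 and 412 CPM on 2004. Its groups were well separated, with a log2 fold change of 2.15 ± 0.16 (SE, adjusted p = 7.3e-06 by edgeR). *pmp-5*, the counterpart of the human lysosomal B12 transporter ABCD4, had 7.56 and 31.5 CPM on OP50 and 4.36 and 3.34 CPM on 2004, a log2 fold change of -2.35 ± 0.48 (SE, adjusted p = 0.00366 by edgeR). As with *acdh-1*, OP50 replicate 2 was far above the other samples, and the log2 fold change of *pmp-5* was -1.11 without it and -2.99 without OP50 replicate 1.

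*mtrr-1*, whose enzyme reactivates methionine synthase, had 29.5 and 39.3 CPM on OP50 and 65.6 and 49.3 CPM on 2004, a log2 fold change of 0.69 ± 0.15 (SE, adjusted p = 0.00486 by edgeR), which is under 2-fold. The other genes of the list, *mmaa-1*, *mmab-1* and *cblc-1*, which act in the intracellular processing of B12, had log2 fold changes of -0.18, -0.11 and -0.19, with adjusted p-values of 0.267, 0.555 and 0.254 (edgeR).

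Of 5 regulators, 0 were called by edgeR, DESeq2 or limma-voom. Both at an unadjusted p under 0.05 and at an adjusted p under 0.1 with no fold threshold, 3 were lower (*nhr-68*, *nhr-114* and *sbp-1*) and 1 higher (*mdt-15*). The share with such an adjusted p over all tested genes was 25.2% lower and 23.9% higher. *nhr-10* and *nhr-68* encode the nuclear hormone receptors that switch on the shunt when propionate accumulates. *nhr-10* had 16.0 and 25.1 CPM on OP50 and 19.0 and 13.7 CPM on 2004, a log2 fold change of -0.38 (95% confidence interval -0.84 to 0.078, adjusted p = 0.166, edgeR). *nhr-68* had 6.22 and 12.3 CPM on OP50 and 7.21 and 4.70 CPM on 2004, a log2 fold change of -0.68 (95% confidence interval -1.35 to -0.0032, adjusted p = 0.0999, edgeR). In both receptors OP50 replicate 1 lay within the range of the 2004 samples and OP50 replicate 2 was the highest sample. Without OP50 replicate 2 the log2 fold change of *nhr-68* was -0.21, and without OP50 replicate 1 it was -1.01. With DESeq2 its adjusted p was 0.109. *nhr-114*, a receptor that activates methionine cycle genes when the cycle runs low, had 8.37 and 10.9 CPM on OP50 and 6.0 and 5.68 CPM on 2004, a log2 fold change of -0.77 ± 0.23 (SE, adjusted p = 0.0219 by edgeR).

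Branched-chain amino acid breakdown, a source of propionyl-CoA, had a median log2 fold change of 0.033 over 15 genes, with 1 called higher and 1 lower, shares at or under the 7.55% and 14.8% of all tested genes. The gene called lower was *acdh-2*, an acyl-CoA dehydrogenase and paralog of *acdh-1*. It had 12.6 and 17.5 CPM on OP50 and 0.475 and 0.842 CPM on 2004, a log2 fold change of -4.54 ± 0.34 (SE, adjusted p = 7.9e-06 by edgeR). The 2004 values rest on 22 and 39 counts, and the OP50 samples were closer to each other than those of *acdh-1*. Reads from similar parts of the paralogs may have been shared between them. The gene called higher was *hacd-1*, a hydroxyacyl-CoA dehydrogenase, with 8.87 and 9.62 CPM on OP50 and 74.1 and 59.3 CPM on 2004, a log2 fold change of 2.79 ± 0.14 (SE, adjusted p = 1.2e-06 by edgeR).

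Of the 13 acyl-CoA dehydrogenase genes *acdh-1* to *acdh-13*, 10 were tested. *acdh-1* and *acdh-2* were called lower and *acdh-13* higher, at 12.6 and 11.8 CPM on OP50 and 29.2 and 26.8 CPM on 2004 (log2 fold change 1.14 ± 0.17, SE, with an edgeR adjusted p = 0.000648). The median of the 10, which include *acdh-1*, was -0.37, and both counts of called genes are close to the shares over all tested genes (14.8% lower and 7.55% higher). At an adjusted p under 0.1 with no fold threshold, 6 were lower and 2 higher (edgeR), against 25.2% and 23.9% of all genes. Both 2004 samples lay below both OP50 samples in 6 and above them in 3, against 33.7% and 37.5% of all genes.

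Beyond *metr-1*, the methionine cycle and transsulfuration list of 12 genes had a median of 0.014, with 1 gene called higher and 2 lower, close to the 7.55% and 14.8% of all tested genes. *cth-1* and *cth-2* encode cystathionine gamma-lyases, which form cysteine from cystathionine. *cth-2* had 104 and 174 CPM on OP50 and 38.5 and 29.9 CPM on 2004 (log2 fold change -2.06 ± 0.19, SE, with an edgeR adjusted p = 3.3e-05). *cth-1* had 12.3 and 25.0 CPM on OP50 and 6.34 and 5.83 CPM on 2004 (log2 fold change -1.64 ± 0.27, SE, with an edgeR adjusted p = 0.00123). Both genes were again highest in OP50 replicate 2, and without it their log2 fold changes were -1.74 for *cth-2* and -1.15 for *cth-1*. *sams-5*, an S-adenosylmethionine synthetase gene, was called higher, at 0.988 and 0.911 CPM on OP50 and 7.46 and 8.39 CPM on 2004 (log2 fold change 3.01 ± 0.31, SE, with an edgeR adjusted p = 6.2e-05). The 4 genes of succinyl-CoA ligase, which acts on the product of the B12-dependent route, had 0 calls by edgeR, DESeq2 or limma-voom and a median of -0.044. At an unadjusted p under 0.05 *suca-1* was lower and *sucg-1* higher, where 3173 and 3006 of the 12505 tested genes were.

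**Figure D5:**
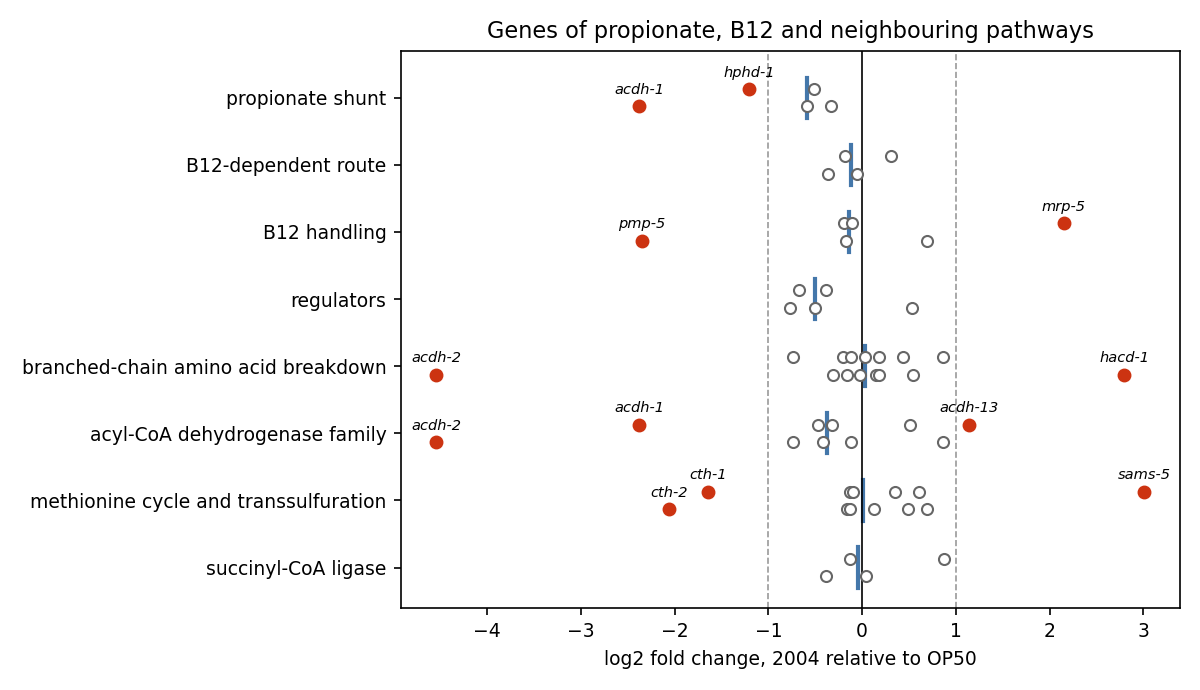
Log2 fold change, 2004 relative to OP50, of each tested gene by list; red points were called and are named, open points were not, blue bars mark the median of each list and dashed lines a 2-fold change. The shunt median lies at -0.59 and that of the B12-dependent route at -0.12.

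The 3 genes with the profile nearest to *acdh-1* over the 4 samples were T05E12.6, *pmp-5* and F12A10.1, among the 6785 tested genes outside the 10 with a mean of at least 10 CPM, which include 3 that had 0 counts in a sample. Nearness was the Euclidean distance between log2(CPM + 2) values centred on each gene's mean, and it was 0.39, 0.43 and 0.51. T05E12.6 had 8.46 and 29.4 CPM on OP50 and 3.75 and 2.96 CPM on 2004, and F12A10.1 had 8.62 and 25.9 CPM on OP50 and 3.69 and 2.14 CPM on 2004. Like *acdh-1*, all 3 were highest in OP50 replicate 2, which follows from how they were chosen. The distance rests on 4 samples and is a description.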

How the data were processed

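RNA of whole N2 animals on either food (2 samples each) was sequenced on an Illumina HiSeq instrument. Per the submitters' processing notes and the methods, the authors used FastQC 0.11.8, Trim Galore 0.6.4, HISAT2 2.1.0 against WBcel235, SAMtools 1.7 and StringTie 2.1.1. The deposited values are counts per transcript (57834 transcripts), whole numbers without normalization. The annotation release and strandedness are not given in the sources used here.

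Counts were summed per sequence name (46745 names, of which 46450 matched 1 gene of Ensembl release 115). Genes that reached 0.5 CPM in 2 or more samples were tested with edgeR 4.0.16 (glmQLFit and glmQLFTest, TMM) in R 4.3.3, adjusted by Benjamini-Hochberg over 12505 genes. A call required an adjusted p under 0.1 together with a change above 2-fold. Standard errors and intervals came from the F statistic. Total counts per library (44548901 to 50504029) make 3 counts at most 0.0673 CPM, which covers counting error only. DESeq2 1.42.0, limma-voom (limma 3.58.1), other scalings, filters and thresholds, a replicate block and leaving out each sample were tried. In simulated counts over 12204 genes, edgeR recovered 187 of 194 genes changed by a log2 fold change of 2, with 10 false calls. Over 12200 genes it recovered 156 of 189 changed by a log2 fold change of 1.5, with 16 false calls. The simulation raised as many genes as it lowered, and each gene had the same dispersion on both foods. In the data 944 genes were called higher and 1851 lower, and the OP50 samples were more spread. These rates need not hold for *acdh-1* or *hphd-1*.

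The members and lists were chosen with earlier results of these data known. The text names the 10 genes, *nhr-10*, *nhr-68*, *nhr-114*, *acdh-2*, the called genes of 6 lists and the 3 nearest profiles. *mtrr-1*, *mmaa-1*, *mmab-1*, *cblc-1*, *sbp-1*, *mdt-15*, *suca-1*, *sucg-1* and the markers were named after their values were seen. The symbol *mccc-2* matched no annotated gene and was left out.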

Additional observations from a re-analysis of the deposited data

How the results depend on the processing

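The direction of all shunt genes held in the 12 other fits of summed counts (DESeq2, limma-voom, other scalings and filters, the replicate block with same or crossed numbers, each sample left out). The call of *acdh-1* held in the 8 of them that kept all 4 samples. In fits with 1 sample of a food left, that sample is assumed to vary like the others. For *acdh-1* the OP50 samples lay 4.07-fold apart and the 2004 samples 1.15-fold. Leaving out an OP50 sample therefore understates its spread. The number of shunt genes called lower was 1 with DESeq2, 1 with glmTreat against 2-fold, 4 without a fold threshold, and between 1 and 2 with each sample left out in turn. At an adjusted p under 0.1 and any fold it was between 2 and 5 with each sample left out. Without a fold threshold, 1 of the 4 genes of the B12-dependent route was called lower. Called in either direction were 4 of 5 regulators, 5 of 15 genes of branched-chain amino acid breakdown and 8 of 10 acyl-CoA dehydrogenases. So were 5 of 12 methionine cycle genes and 2 of 4 succinyl-CoA ligase genes. Over all tested genes, 25.2% were lower and 23.9% higher at that threshold. The number of regulators called was between 0 and 1 with each sample left out. Over all genes, 944 were called higher and 1851 lower, against 333 and 670 with glmTreat and 2989 and 3154 without a fold threshold.

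The log2 fold change of *pcca-1* was 0.0031 when scaled by library size alone and between -0.17 and 0.086 with each sample left out. Single transcripts went against their gene for *hach-1* (2.49 for F09F7.4b.3) and *alh-8* (0.92 for F13D12.4b, 36 and 21 counts on OP50 and 57 and 56 on 2004). The cause was not tested.

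Same-numbered samples did not deviate together (r = -0.109 over 12505 genes, which are not independent replicates). With 2 samples per food, this cannot decide whether the numbers pair the samples. With the replicate block, 923 genes were called higher and 1785 lower, 2 of them in the shunt, and *acdh-1* had a log2 fold change of -2.10. With crossed numbers, an alternative added after seeing the data, the counts were 948 and 1845. The alternatives for the gene lists, for the shunt at any fold and for samples left out of the route ratio were added likewise.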
